A study of Homo sapiens with 4 samples.

Results

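The insulin-like growth factor (IGF) axis was described here through 10 genes measured in HEK293 cells, a line derived from human embryonic kidney. They comprised 6 IGF binding protein genes (IGFBP2 to IGFBP7), the receptor genes IGF1R and IGF2R, and the insulin receptor substrate genes IRS1 and IRS2, out of 18774 genes with a named probe. IGFBP5 was chosen because its signal was much higher after MIF siRNA than in the control arrays, so its values in that comparison are a description and no test of them is given. The other 9 genes were taken for their family or their role, with earlier results of these data known. IGFBP1, INSR and IRS4, of the same family or role, were not among them and stand in the lists of related genes. All 10 passed the filter on dim probes described below.

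Total RNA was taken 24 h after transfection with Lipofectamine reagent and hybridised to 4 single-colour Illumina Human-6 bead arrays. Of these, 2 arrays held RNA from cells given siRNA against MIF, the gene of the cytokine macrophage migration inhibitory factor. They are called 1# and 2# as in their labels. One further array held RNA from cells transfected with a control RNA, and another RNA from untreated cells of the same line. The series text names siRNA doses of 50 and 100 pmol/ml. The label of 2# gives 50 pmol/ml and that of 1# gives no dose, and the labels do not say whether both carried the same siRNA sequence. The labels mention no separate cultures, so p-values measure only the spread between these arrays, and any difference in dose or siRNA between 1# and 2# counts as spread.

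IGF1 and IGF2 act mainly through IGF1R, a receptor tyrosine kinase that hands its signal to the docking proteins IRS1 and IRS2 and from there to PI3-kinase and AKT. IGF2R binds IGF2 and carries it to the lysosome without a kinase signal of its own. The IGF binding proteins hold the ligands outside the cell, and each can withhold them from the receptor or bring them to it, depending on its own breakdown by proteases. AKT signalling keeps FOXO transcription factors out of the nucleus, and IRS2 is a known FOXO target in liver.

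Values are signals (linear intensities) after quantile normalization between arrays, and differences are on the log2 scale. The deposited intensities had medians between 71.9 and 78.5, and the background was left in them, so fold changes of dim probes are too small. This bears on IGFBP3, IGFBP4, IGFBP6 and IRS1, whose signals lay between 204 and 366 on every array, and on IGFBP5, whose control signals were 185 and 222, beside a median over all probes of 75.6. After the filter on that median, 13755 genes were compared. The target itself, MIF, had signals of 11614 on 1# and 17040 on 2#, compared with 22463 on the control RNA array and 21908 on the untreated array, lower in both siRNA arrays and lowest in 1#. Among 8 genes checked as marks of this line, KRT8, KRT18, VIM and NEFL were bright on all arrays, while PAX2 did not pass the filter. NEFM lay between 105 and 110, and IRS4, the IRS protein for which HEK293 cells are known, between 71.2 and 80.2, close to the filter.

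The binding protein IGFBP5, which binds to extracellular matrix as well as to IGFs, had the highest signal on 1# and the next on 2#. Its signals were 2420.3 on 1# and 649 on 2#, compared with 185 on the control RNA array and 222 on the untreated array. The siRNA arrays therefore lay clear of the control arrays, and 1# stood 3.73-fold above 2#. Relative to control RNA the fold was 13.1 on 1# and 3.51 on 2#, and relative to untreated cells it was 10.9 on 1# and 2.93 on 2#. The mean log2 difference from both control arrays was 2.63, and it was 1.68 without 1# and 3.58 without 2#, so its size depended on which siRNA array was used. With background left in the dim control signals, these folds are too small. Since an array measures RNA pooled over all cells, a large change in some cells and a smaller one in all cells cannot be told apart.

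**Figure D1:**
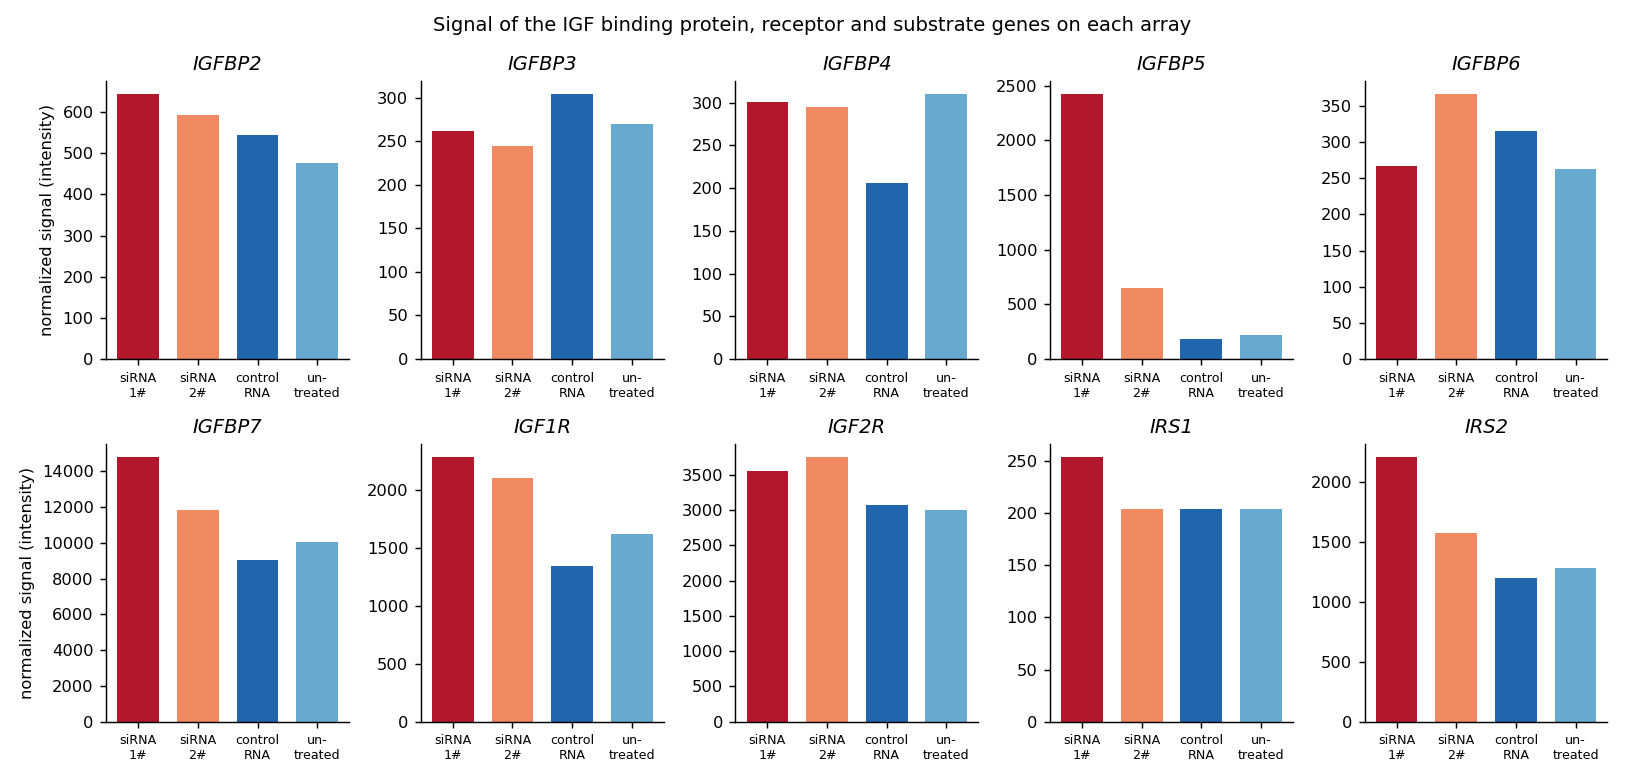
Normalized signal (linear intensity, each axis from 0 and scaled to its own gene) of the 10 genes on each of the 4 arrays, with 1 bar per array and no error bars because each bar is a single array. IGFBP5 reached 2420.3 on 1# and 649 on 2#, compared with 185 on the control RNA array and 222 on the untreated array, while IGFBP4 was lowest in control RNA at 206.

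IGFBP5 and IGFBP4 had the largest differences of the 10 genes in the siRNA comparison and in the control RNA comparison, and IRS2 and IGF1R followed IGFBP5 in the siRNA comparison, so the starts of these 4 genes are shown. Each line gives the 250 bases before the annotated start in RefSeq (GRCh38.p14), read along the gene. The windows are chr2:216695550-216695799 on the minus strand for IGFBP5 and chr17:40443200-40443449 on the plus strand for IGFBP4. For IGF1R the window is chr15:98648289-98648538 on the plus strand, and for IRS2 chr13:109786584-109786833 on the minus strand. Capitals mark any match, on either strand, to TATAAA (the TATA box), its variant TATTTAA, the CCAAT box, GGGCGG (the GC box bound by SP1 family factors) or GTAAACA (the FOXO core).
IGFBP5: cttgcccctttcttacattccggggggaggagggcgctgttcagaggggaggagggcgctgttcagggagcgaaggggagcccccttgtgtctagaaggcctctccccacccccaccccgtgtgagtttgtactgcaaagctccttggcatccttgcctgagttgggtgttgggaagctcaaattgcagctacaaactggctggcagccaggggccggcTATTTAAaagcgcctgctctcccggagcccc
IGFBP4: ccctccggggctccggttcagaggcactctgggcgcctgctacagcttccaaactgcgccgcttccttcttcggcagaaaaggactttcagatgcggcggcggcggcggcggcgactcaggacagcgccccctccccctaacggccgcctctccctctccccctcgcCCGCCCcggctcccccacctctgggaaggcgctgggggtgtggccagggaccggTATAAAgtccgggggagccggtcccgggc
IGF1R: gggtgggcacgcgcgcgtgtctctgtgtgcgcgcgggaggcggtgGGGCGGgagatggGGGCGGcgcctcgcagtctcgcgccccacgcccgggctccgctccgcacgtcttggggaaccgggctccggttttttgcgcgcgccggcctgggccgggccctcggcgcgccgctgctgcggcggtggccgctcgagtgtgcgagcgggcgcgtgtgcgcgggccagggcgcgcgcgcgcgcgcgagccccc
IRS2: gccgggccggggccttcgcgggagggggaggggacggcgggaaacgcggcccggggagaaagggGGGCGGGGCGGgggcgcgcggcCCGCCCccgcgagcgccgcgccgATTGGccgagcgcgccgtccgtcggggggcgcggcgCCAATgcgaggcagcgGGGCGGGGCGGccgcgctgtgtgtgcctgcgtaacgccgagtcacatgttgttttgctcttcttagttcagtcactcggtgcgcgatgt

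These windows differed in kind. IGFBP4 held TATAAA beginning 29 bases before the start, and IGFBP5 held the variant TATTTAA 31 bases before it and none of the other letters searched. IRS2 held 5 matches to GGGCGG, 2 pairs of which overlapped, and 2 to CCAAT, and IGF1R held 2 matches to GGGCGG. The GC content was 61.2% in the IGFBP5 window, 71.6% in that of IGFBP4, 81.2% in that of IGF1R and 76.4% in that of IRS2. The table of starts held 9 of the 10 genes in 11 windows. Of those windows, 9 held GGGCGG, against 42.6% of the 35116 windows of all genes. TATAAA was in 1 window of the 11 (10.7% of all windows), TATTTAA in 1 (4.17%), CCAAT in 2 (32%) and GTAAACA in 1 (2.98%), that of IGFBP6. A match here describes the letters only, and the arrays measured no factor at these sites.

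Among the other binding proteins, IGFBP7, a related protein that binds IGFs weakly, had the clearest separation. Its signals were 14805 on 1# and 11819.5 on 2#, compared with 9042 on the control RNA array and 10038 on the untreated array. Both siRNA arrays were higher than both control arrays, by 1.18-fold to 1.64-fold, with a mean log2 difference of 0.47 ± 0.13 (SE) and a limma adjusted p of 0.0780, and without 1# the difference was 0.31. IGFBP2, a binding protein abundant in fetal tissue, had signals of 643 on 1# and 593 on 2#, compared with 544 on the control RNA array and 476 on the untreated array. It too was higher in all 4 pairs of an siRNA and a control array, and its mean log2 difference was 0.28 ± 0.10 (SE, limma adjusted p 0.139). With median scaling (every array brought to an equal median) in place of quantile normalization it was 0.46 (limma adjusted p 0.0572), and without the untreated array it was 0.18. IGFBP2 and IGFBP5 are neighbours on chromosome 2, and the smallest of the 4 pair folds was 1.09 for IGFBP2 and 2.93 for IGFBP5.

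IGFBP3, the main carrier of IGFs in blood, was the gene with lower signals after MIF siRNA in all 4 pairs, although the gap was small. Its signals were 262 on 1# and 245 on 2#, compared with 304 on the control RNA array and 269 on the untreated array. The mean log2 difference of -0.18 ± 0.10 (SE) had a limma adjusted p of 0.292. It was -0.09 without control RNA and 0.0086 with median scaling, so its direction rests on the normalization.

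IGFBP4 and IGFBP6 had siRNA signals within or overlapping those of the control arrays. IGFBP6, which prefers IGF2 over IGF1, had signals of 268 on 1# and 366 on 2#, compared with 316 on the control RNA array and 263 on the untreated array. The siRNA arrays themselves were further apart than the control arrays, and the mean log2 difference was 0.12 ± 0.17 (SE, limma adjusted p 0.688). Without 2# it was -0.11, and without the untreated array -0.011, while without 1# it was 0.35, without control RNA 0.25 and with median scaling 0.31.

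IGFBP4, a binding protein that mostly restrains IGF action and is cut by the protease PAPP-A, set control RNA apart from the other arrays. Its signals were 301 on 1# and 295 on 2#, compared with 206 on the control RNA array and 310 on the untreated array. Control RNA was lowest, and untreated cells were 1.03-fold above 1# and 1.05-fold above 2#. Against both control arrays the mean log2 difference was 0.24 ± 0.19 (SE, limma adjusted p 0.455), but it was 0.53 without the untreated array and -0.058 without control RNA, and 0.43 with median scaling. The log2 difference of control RNA minus untreated was -0.59, a signal 1.51-fold lower in control RNA, and only 4 of the 13755 genes compared (0.0291%) were at least 1.5-fold lower there. With 1 array each this has no replicate check. Under the other scalings, floors and probe rules that difference was between -0.59 and -0.55, and it was short of 1.5-fold with median scaling (-0.55) and with normexp background correction (-0.58).

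**Figure D2:**
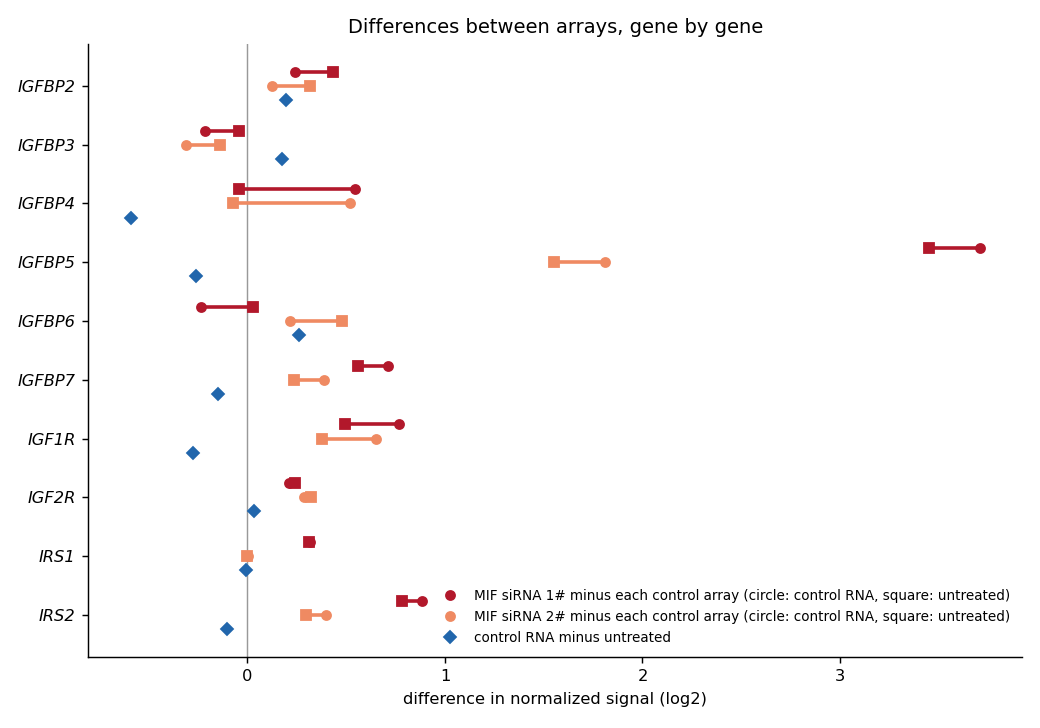
Difference in normalized signal (log2, horizontal axis) for each of the 10 genes (vertical axis), with 1# in dark red and 2# in orange against control RNA (circles) and untreated cells (squares), and control RNA minus untreated as blue diamonds. IGFBP5 lay at 1.55 or more in all 4 pairs, IGFBP4 changed sign between the control arrays, and the blue diamond of IGFBP4 stood at -0.59.

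The brighter of 2 probes for the receptor gene IGF1R had higher signals on both siRNA arrays. It had signals of 2287 on 1# and 2109 on 2#, compared with 1341 on the control RNA array and 1622 on the untreated array. The siRNA arrays were close to each other and above both control arrays, by 1.30-fold to 1.70-fold, with a mean log2 difference of 0.57 ± 0.12 (SE) and a limma adjusted p of 0.0534. A dimmer second probe for IGF1R went the other way, with 120.1 on 1# and 119.7 on 2#, compared with 140.6 on the control RNA array and 140.7 on the untreated array. With the mean of both probes the log2 difference of IGF1R was 0.17 (limma adjusted p 0.248), so its size depended on the probe.

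IGF2R, the receptor that clears IGF2, had signals of 3546 on 1# and 3749.8 on 2#, compared with 3069 on the control RNA array and 2999.5 on the untreated array. All 4 pairs were higher after siRNA, at a mean log2 difference of 0.27 ± 0.09 (SE, limma adjusted p 0.105). Here 1#, the array with less MIF signal, did not have the higher value.

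IRS2 and IRS1, the docking proteins downstream of IGF1R, differed from each other. IRS2 had signals of 2209 on 1# and 1576 on 2#, compared with 1195 on the control RNA array and 1284 on the untreated array. Both siRNA arrays were above both control arrays, by 1.23-fold to 1.85-fold, and the mean log2 difference was 0.59 ± 0.16 (SE, limma adjusted p 0.0783), against 0.35 without 1# and 0.83 without 2#. IRS1 had a signal of 254 on 1# and 204 on 2#, compared with 204 on the control RNA array and 204 on the untreated array. Thus IRS1 was above the control arrays in 1# by 1.24-fold to 1.25-fold, whereas 2# stood at their level, and the mean log2 difference was 0.16 ± 0.12 (SE, limma adjusted p 0.444). The other IRS1 probes were near the filter, at 101 on 1# and 96.6 on 2#, compared with 99.2 on the control RNA array and 107.8 on the untreated array, and at 65.1 on 1# and 69.4 on 2#, compared with 69.6 on the control RNA array and 72.5 on the untreated array. Neither of these probes was higher on both siRNA arrays than on both control arrays, and with the mean of its 3 probes the log2 difference of IRS1 was 0.0047. For the brightest probe it was 0.00032 without 1#, 0.32 without 2# and 0.34 with median scaling.

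Across the 10 genes, 6 were higher in all 4 pairs (IGFBP2, IGFBP5, IGFBP7, IGF1R, IGF2R and IRS2), 1 was lower (IGFBP3) and 3 were mixed. Since IGFBP5 was chosen on this comparison, the count to set beside all genes is that of the other 9, of which 5 were higher and 1 lower. Those 9 were also chosen with earlier results of these data known, so their shares are a description. Among all genes compared, 32.6% were higher in all 4 pairs and 28.7% lower. Of those 9 genes 0 were at least 1.5-fold higher in all 4 pairs, against 0.742% of all genes, and 0 were at least 1.5-fold lower, against 0.4%. IGFBP5 was past 1.5-fold in all 4 pairs, which its choice fixed. The median of the mean log2 differences was 0.27 for the 10 genes and also for the 9 without IGFBP5, beside 0.01 for all genes compared. With median scaling, IGFBP4 and IRS1 joined the genes higher in all 4 pairs and IGFBP3 left the lower side, giving 8 higher and 0 lower, or 7 and 0 without IGFBP5. Under that scaling 46.8% of all genes were higher in all 4 pairs and 17.4% lower.

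In the limma fit of the siRNA arrays against both control arrays, 0 of the 9 genes other than IGFBP5 passed an adjusted p of 0.05, and 0 of all 13755 genes did (0%). At an unadjusted p under 0.05 there were 5 of the 9 (IGFBP2, IGFBP7, IGF1R, IGF2R and IRS2), against 4090 of all genes, or 29.7%. The count over all genes lay at the edge of the threshold, as the smallest adjusted p in this limma fit was 0.0501. With all 4 arrays the fit called 590 to 1581 genes under median scaling, another filter or a variance trend. It called 0 under the other processing alternatives. The counts of 0 also depended on single arrays. Without 1#, limma called IGF1R (adjusted p 0.0203) among 11.2% of all genes. Without 2# it called IGFBP2, IGFBP7, IGF1R, IRS1 and IRS2 among 33.6% of all genes. In both cases the lone siRNA array was assumed to vary like the control pair.

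**Figure D3:**
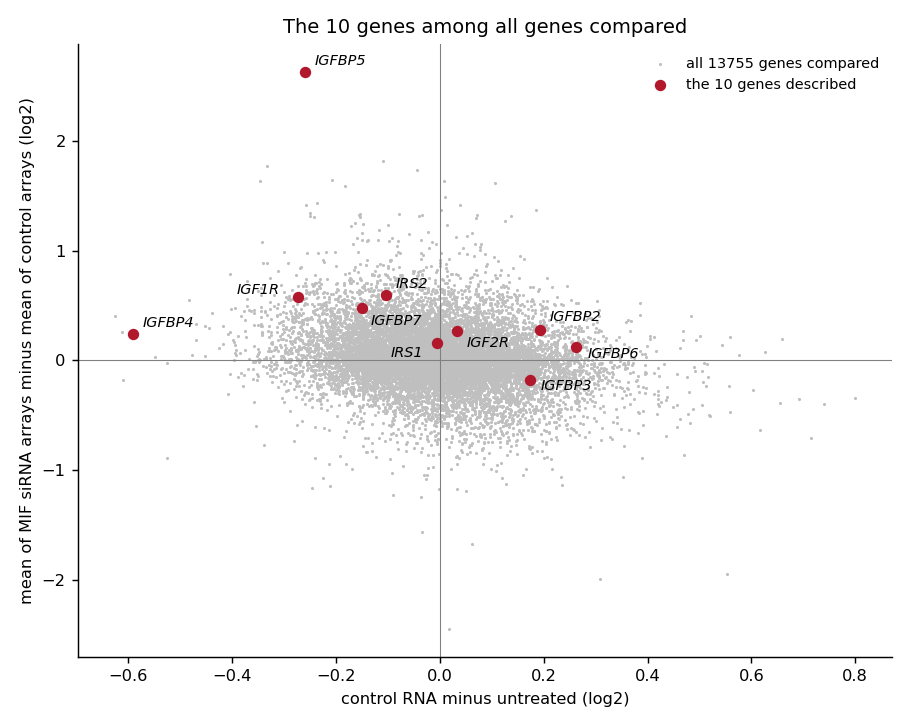
Mean of the MIF siRNA arrays minus mean of the control arrays (log2, vertical axis) against control RNA minus untreated (log2, horizontal axis) for the 13755 genes compared (grey) and the 10 genes described (red). The control arrays enter both axes, so no slope should be read from the plot, in which IGFBP5 stood at 2.63 on the vertical axis and IGFBP4 at -0.59 on the horizontal axis.

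Between the siRNA arrays, 7 of the 10 genes were further from the control mean in 1#, the array with less MIF signal, than in 2#, or 6 of the 9 without IGFBP5. The same was true of 68.6% of all genes compared, so the share of the 9 genes was near that of the background. IGFBP5 alone was at least 1.5-fold higher in 1# than in 2#, as were 1.21% of all genes, and 0 of the 10 were at least 1.5-fold lower, against 0.931%. The next in size were IRS2, with a log2 difference of 1# minus 2# of 0.49, and IGFBP6, with -0.45. IGFBP4 (0.03), IGF2R (-0.08) and IGFBP3 (0.10) were nearly level between 1# and 2#. Between control RNA and untreated cells, IGFBP4 alone was past 1.5-fold, and 0 of the 10 were at least 1.5-fold higher, against 0.0654% of all genes. IGF1R (-0.27), IGFBP5 (-0.26), IGFBP6 (0.26), IGFBP2 (0.19), IGFBP3 (0.17) and IGFBP7 (-0.15) followed on the log2 scale, while IRS2 (-0.10), IGF2R (0.03) and IRS1 (-0.01) were the closest to level.

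The 5 genes outside the set whose log2 signals, each centred on its mean over the 4 arrays, lay nearest to those of IGFBP5 were ZNF467, PARM1, SULF1, FAXDC2 and SELENOP. They were picked by their likeness to IGFBP5, so their pattern is a description. The nearest, the zinc finger gene ZNF467, had signals of 778 on 1# and 345 on 2#, compared with 142 on the control RNA array and 153 on the untreated array. SULF1, an extracellular heparan sulfate sulfatase, had 478 on 1# and 197 on 2#, compared with 87.7 on the control RNA array and 111 on the untreated array. SELENOP, a secreted selenium transport protein, had 2791 on 1# and 1099 on 2#, compared with 547 on the control RNA array and 620 on the untreated array. All 5 were highest in 1#, next in 2#, and higher in untreated cells than in control RNA. Their distances from IGFBP5 were 0.97 to 1.11 on the log2 scale, beside a length of 2.96 for the centred IGFBP5 profile itself, so none matched its size.

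**Figure D4:**
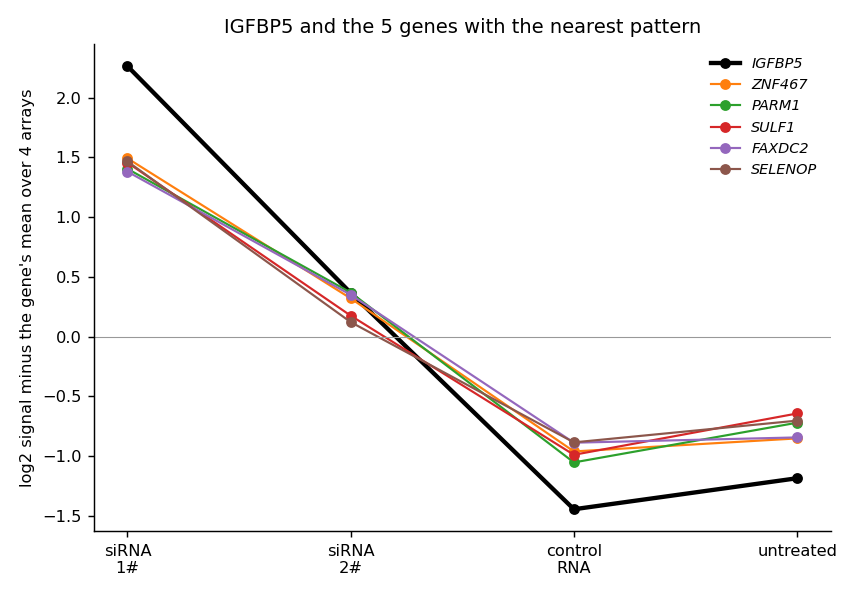
Log2 signal minus the gene's own mean over the 4 arrays (vertical axis) for IGFBP5 (black) and the 5 genes with the nearest pattern (colours), by array (horizontal axis). All 6 were highest in 1#, and IGFBP5 had the widest range, with 2420.3 in 1# and 185 in control RNA.

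Genes around the axis were taken from lists by role, and for each list the 3 with the largest mean difference are named. Counts of genes higher or lower in all 4 pairs stand beside 32.6% higher and 28.7% lower among all genes compared, and under median scaling beside 46.8% higher and 17.4% lower. Of 6 genes for ligands and proteins that govern their release, 5 passed the filter and 2 were higher and 1 lower in all 4 pairs. Their median log2 difference was -0.02, beside 0.01 for all genes compared, and 0.05 under median scaling. IGF2, the ligand of fetal growth, had signals of 190.0 on 1# and 143 on 2#, compared with 92.6 on the control RNA array and 103 on the untreated array, with a log2 difference of 0.75 ± 0.15 (SE, limma adjusted p 0.0526). Its siRNA signals were above both control signals in a dim range. The stanniocalcins, which inhibit PAPP-A, had differences of opposite sign, with log2 differences of 0.74 ± 0.27 for STC1 and -0.40 ± 0.09 for STC2 (SE, limma adjusted p 0.132 and 0.0569). STC1 was dim, with 267 on 1# and 145 on 2#, compared with 108 on the control RNA array and 127 on the untreated array. Its 2# signal was thus only 1.14-fold above untreated cells. STC2 had 346 on 1# and 357 on 2#, compared with 448 on the control RNA array and 480 on the untreated array.

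Another 14 genes, outside the set described, encode proteins with an IGFBP-type domain, among them IGFBP1 of the classic family. Of these, 11 passed the filter, with 2 higher and 5 lower in all 4 pairs and a median log2 difference of 0.01. Under median scaling 4 were higher and 4 lower. Among all genes these shares were 32.6% and 28.7%, and 46.8% and 17.4% under median scaling. IGFBP1, the binding protein induced by fasting in liver, was among the 3 that did not pass. CCN1, a matricellular protein, had signals of 417 on 1# and 937 on 2#, compared with 2775 on the control RNA array and 2239.96 on the untreated array. CCN2, the connective tissue growth factor, had 2308 on 1# and 4411 on 2#, compared with 7211 on the control RNA array and 7222 on the untreated array. Both were at least 1.5-fold lower in all 4 pairs, as were 0.4% of all genes, the opposite side from IGFBP5. Their relative CCN3 had 135 on 1# and 108 on 2#, compared with 76.4 on the control RNA array and 81.5 on the untreated array, and was thus higher after siRNA. None of the 3 passed the limma fit, with adjusted p of 0.0501 for CCN1, 0.0617 for CCN2 and 0.0543 for CCN3.

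Of 19 genes of proteases that cut IGF binding proteins or activate such proteases, 13 passed the filter, with 9 higher and 1 lower in all 4 pairs. The median log2 difference was 0.19, beside 0.01 for all genes compared, of which 32.6% were higher and 28.7% lower in all 4 pairs. Under median scaling the counts were again 9 higher and 1 lower, beside 46.8% higher and 17.4% lower among all genes. The median was then 0.32, beside 0.09 for all genes. PLAT, the tissue plasminogen activator, had signals of 1597 on 1# and 1029.7 on 2#, compared with 734 on the control RNA array and 842 on the untreated array. C1R, the complement protease that activates C1S, had 275 on 1# and 196 on 2#, compared with 172 on the control RNA array and 149 on the untreated array. HTRA1, a secreted serine protease that cuts IGFBP5, had 2254 on 1# and 2605 on 2#, compared with 1673 on the control RNA array and 1777 on the untreated array. All 3 were higher in every pair, and none passed the limma fit (adjusted p 0.0859 for PLAT, 0.102 for C1R and 0.0546 for HTRA1). C1R has 4 probes, and its values are those of the brightest only.

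Downstream of the receptors, 41 genes of insulin and IGF receptor signalling were listed, of which 37 had a named probe and 35 passed the filter. Of these, 16 were higher and 7 lower in all 4 pairs, 0 passed the limma fit, and the median log2 difference was 0.11, where 32.6% of all genes were higher and 28.7% lower. Under median scaling 23 were higher and 3 lower in all 4 pairs and the median was 0.25, beside 46.8% higher, 17.4% lower and a median of 0.09 for all genes compared, and 6 genes (INSR, GRB2, GRB14, PDPK1, AKT2 and RPTOR) changed sign. FOXO4, a FOXO factor that AKT restrains, had signals of 1813 on 1# and 1415 on 2#, compared with 891 on the control RNA array and 797 on the untreated array. PIK3R1, the regulatory subunit that joins PI3-kinase to IRS proteins, had 490 on 1# and 444 on 2#, compared with 278 on the control RNA array and 265 on the untreated array. FOXO3 had 5109 on 1# and 4349 on 2#, compared with 2991 on the control RNA array and 2844 on the untreated array. FOXO4 and PIK3R1 were at least 1.5-fold higher in every pair and FOXO3 at least 1.45-fold, with a limma adjusted p of 0.0501 for each. PIK3R1 and FOXO3 have 3 probes each, and these values are those of the brightest only.

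Of the 3 genes of IGF2 mRNA-binding proteins, IGF2BP2 was higher and IGF2BP1 lower in all 4 pairs, and IGF2BP3 was mixed. Their log2 differences were 0.24 ± 0.11, -0.22 ± 0.11 and -0.04 ± 0.09 (SE) in that order, with limma adjusted p of 0.204, 0.251 and 0.824. The median of the 3 was -0.04, so they did not share 1 direction. Under median scaling IGF2BP3 changed sign, the median was 0.07, and 2 were higher and 0 lower in all 4 pairs.

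**Figure D5:**
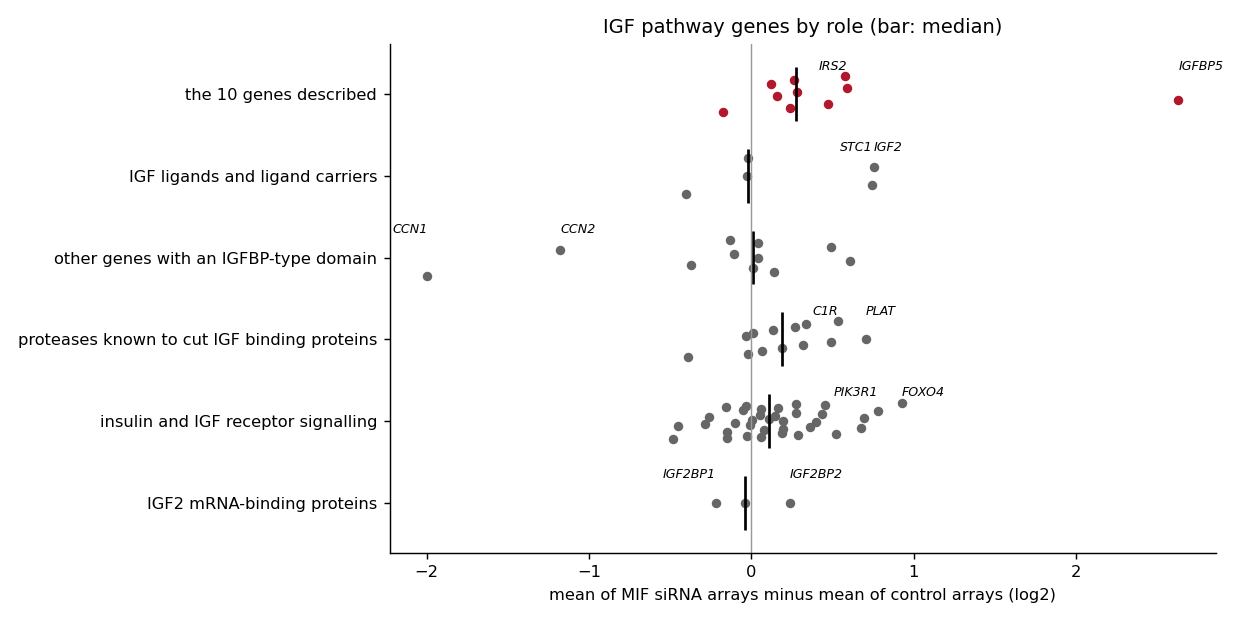
Mean of the MIF siRNA arrays minus mean of the control arrays (log2, horizontal axis) for the genes of each role that passed the filter, with 1 point per gene, a black bar at the median and the 2 genes furthest from 0 named. IGFBP5 at 2.63 and CCN1 at -2.00 were the extremes, and the medians of the lists lay between -0.04 and 0.27.

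Markers of other cell types (fibroblasts, blood, endothelium and liver) were also listed. The summed signal of these 12 genes was 1431 on 1# and 1412 on 2#, compared with 1378 on the control RNA array and 1366 on the untreated array, and 5 of them (COL1A2, CD3E, HBB, CDH5 and ALB) did not pass the filter. None was at 0, since the background remains in the signal. Of the 7 that passed, 3 were higher and 3 lower in all 4 pairs, beside 32.6% and 28.7% of all genes compared. Under median scaling 4 were higher and 2 lower, beside 46.8% and 17.4%. The fibroblast genes did not share 1 direction. COL3A1, a collagen gene, had 257 on 1# and 134 on 2#, compared with 105.1 on the control RNA array and 105.4 on the untreated array. COL1A1, another collagen gene, had 232 on 1# and 304 on 2#, compared with 323 on the control RNA array and 341 on the untreated array, lower in all 4 pairs. The matrix proteoglycan gene DCN differed by 0.10 on the log2 scale. The summed signal of the 8 marks of the line was 33036 on 1# and 40192 on 2#, compared with 38045 on the control RNA array and 40355 on the untreated array. Of the 7 marks that passed the filter, 2 were higher (VIM and NES), 1 lower (KRT18) and 4 mixed. Under median scaling 3 were higher and 2 lower, and NEFM changed sign. VIM had 8792 on 1# and 7094 on 2#, compared with 5965 on the control RNA array and 6322 on the untreated array, while KRT18 had 12269 on 1# and 16965 on 2#, compared with 17367 on the control RNA array and 18466 on the untreated array. The part of either list in the IGFBP5 signal was not tested.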

How the data were processed

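Expression was measured in 4 HEK293 samples. The authors deposited 1 linear intensity per probe and array (48701 probes), made with BeadStudio per the submitters' processing notes; its version and a genome build are not given in the sources used here. Medians differed between arrays and no intensity was below 39.8, so neither normalization nor background subtraction was apparent. The series value table, also deposited, holds normalized intensities of the same arrays (median 73.8 in the column of 1#). From row 19832 on its identifiers stand 1 row off. There, 36 ribosomal protein probes had a median of 5657 under the sample tables' identifiers and 114 under that table's own. The sample tables were therefore used, and the series table was matched by position. IGFBP5, IGF2R, IRS1 and IRS2 lie in those rows.

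Intensities were quantile-normalized, floored at 32 (0 values below) and log2-transformed. Genes were named through the platform annotation, with symbols updated to RefSeq by Entrez identifier (23651 of 23687 probes with 1 gene, 35 with several, 24979 not listed). Each gene took its brightest probe, and mean signals over 75.6, the median of all probes, were kept. Tests used limma 3.58.1 in R 4.3.3 (lmFit, eBayes, two-sided, Benjamini-Hochberg over 13755 genes, threshold 0.05), MIF siRNA against both control arrays, with 2 residual degrees of freedom; the difference between the control conditions counts as spread. The steps were tested on simulated data. The number of arrays limits the precision.

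Members and lists were chosen with earlier results of these data known. Named were MIF, all 10 members, up to 3 genes per list by absolute mean difference, and the 5 genes nearest to IGFBP5 by Euclidean distance; other genes named as markers, by a count or as IRS4 and IGFBP1 fall outside this rule and were chosen with their values known. The lists held ligands and ligand carriers, IGFBP-type domain genes, proteases, receptor signalling, IGF2 mRNA-binding proteins and cell markers. Alternatives were scaling to the same median, the series table, normexp with an offset of 50, a floor of 64, no filter or a filter at percentile 75, the mean of all probes, a variance trend, leaving out each array, and group means against each control array alone.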

Additional observations from a re-analysis of the deposited data

How the results depend on the processing

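Over 14 alternatives the 10 genes gave 140 mean log2 differences from the control arrays. For every gene, group means against 1 control array repeat the differences found without the other. The filter settings, the variance trend and the floor of 64, which lay under all signals used for these genes, could not move any difference. Under them only an adjusted p could change. The mean of all probes could move only IGF1R and IRS1, the genes with more than 1 probe. The 140 values are therefore not independent checks. IGFBP5 was not tested, so its values counted as kept if they moved by less than the standard deviation of its siRNA arrays. That rule could not fail without 1# or 2#, because leaving out 1 of 2 arrays moves their mean by less than their standard deviation. IGFBP5 therefore counted as kept at 1.68 without 1# and 3.58 without 2#, beside 2.63 with both, and this is no sign of a stable size. Of the 140, 124 kept their direction and, for the tested genes, their side of the threshold. Another 10 were newly called and 6 changed direction. The changes were IGFBP3 under median scaling (0.0086), IGFBP6 without 2# (-0.11), without the untreated array and on group means against control RNA (-0.011 in both, identical by construction), and IGFBP4 without control RNA and on group means against untreated cells (-0.058 in both, likewise). Leaving out single arrays gave -0.11 to 0.35 for IGFBP6 and -0.058 to 0.53 for IGFBP4. The cause was not tested.

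Genes called by limma numbered 0 in the fit as reported, and 1581 under median scaling (86.3% higher), 590 with no filter, 927 with the filter at percentile 75 and 1007 with a variance trend, against 0 to 4624 when single arrays were left out. Of the 9 genes other than IGFBP5, 2 were called under median scaling (IGF1R and IRS2), 1 with the filter at percentile 75 and 1 with the variance trend (IGF1R in both), and 0 to 5 when single arrays were left out. Among all genes tested, limma called 11.5% of 13758 under median scaling and 3.14% of 18774 with no filter. It called 10% of 9224 with the filter at percentile 75 and 7.32% of 13755 with the variance trend. The genes at least 1.5-fold higher in all pairs numbered 102 as reported and 238 under median scaling. Under that scaling those lower numbered 24 in place of 55, so that 90.8% in place of 65% were higher. Leaving out single arrays gave 120 to 705 higher and 58 to 538 lower, the largest without 2#. Fewer pairs then had to pass, so these counts could not fall below 102 and 55 and are no measure of stability. Signal over background limits IGFBP3, IGFBP4, IGFBP6, IRS1 and the control values of IGFBP5. No paired analysis was possible because the control groups have 1 array each and their labels carry no replicate number.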
